A study of Saccharomyces cerevisiae with 18 samples.

Results

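The ribosome biogenesis genes described here are 56 protein-coding genes of budding yeast, out of 6002 in the R64 annotation, whose products assemble the ribosome without being part of it. They were chosen by name (members of the NOP, UTP, RRP and IMP families and related assembly factors), and the rule uses no measured value. Their molecules were taken as the sequenced RNA molecules that overlap a member's coding sequence on the same strand, and unless said otherwise a read counted for a member covers its whole coding sequence and no other.

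The 18 libraries came from the wild-type diploid strain SLS045 of Saccharomyces cerevisiae, grown to mid-log phase at an optical density of 1. The medium was YPAD with 1% glucose or YPGal with 1% galactose, and all groups share the genotype, the strain and the growth phase. TIF-Seq joins the 5' cap end and the 3' poly(A) end of 1 full-length cDNA in a circle and sequences across the joint, so 1 read gives both ends of 1 molecule. The deposited table holds 6 pooled columns: standard capped libraries (6 in glucose from 2 cultures, 6 in galactose from 4 cultures), capped libraries enriched for long molecules (2 per medium, drawn from cultures of the standard columns too), and 1 library of non-capped molecules per medium. Some standard libraries also held capped spike-in transcripts.

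A ribosome begins as a long precursor RNA made by RNA polymerase I in the nucleolus. Box C/D and box H/ACA particles modify it, the UtpA, UtpB and UtpC complexes and the U3 particle fold it into the 90S precursor, and further factors carry the 40S and 60S precursors to the cytoplasm. In yeast the genes of these factors are transcribed by RNA polymerase II as a coordinated group, which is known to share a pair of promoter motifs called PAC and RRPE and to respond to nutrient supply.

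Of the 56 promoters, taken as the 250 bases before the start codon, 50 held PAC, spelled GATGAG or on the other strand CTCATC (89.3%, exact binomial 95% interval 78.1% to 96.0%). RRPE, spelled AAAAATTT or on the other strand AAATTTTT, was in 48 (85.7%, interval 73.8% to 93.6%). Over all 6002 promoters of the same length the shares were 17.0% and 13.4%. Both motifs were present in 43 members (76.8%) against 4.98% of all genes, and UTP22 was the 1 member with neither. The letters of one motif cannot overlap those of the other. These motifs were described by others in promoters of such genes, so their frequency here is a description and not an independent result. The members are a list chosen by name and not a random sample, so the intervals test no difference from all genes. The 30 bases below, from the R64 genome and on the strand of the gene, are shown because they hold both motifs in the members with the most standard glucose reads among those whose motifs lie this close together; capitals mark 1 copy of each motif, and further copies stay in lower case.
GAR1 (chrVIII:283413-283442, minus strand): gtagtgAAAAATTTttcgaGATGAGgaaag
NHP2 (chrIV:87387-87416, plus strand): aAAAAATTTttctgaaaaaaagtGATGAGg
NOP1 (chrIV:427137-427166, plus strand): gAAAAATTTttcaaattggaaagCTCATCt
BRX1 (chrXV:186859-186888, minus strand): gactgAAAAATTTtagatgCTCATCgcgat
EBP2 (chrXI:125630-125659, plus strand): actaCTCATCgggactgaAAATTTTTtatt
CBF5 (chrXII:505979-506008, plus strand): aAAAAATTTgaaaaattttcaaatGATGAG
ENP1 (chrII:714566-714595, minus strand): aatgaAAATTTTTaaaaatcGATGAGctcc
NSA2 (chrV:414302-414331, minus strand): atgAAAAATTTtccggacagcGATGAGatg

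In 7 of these 8 windows RRPE lies farther from the gene than PAC, and EBP2 has the opposite order. Both strands of each motif occur. The start site gives the motifs a second coordinate: the most used capped 5' end in the standard glucose column could be set for 46 members with at least 20 reads. PAC ended a median of 64 nt upstream of it in the 42 of these members that hold it, and in 36 of the 42 it lay between 40 and 120 nt upstream. RRPE lay a median of 82.5 nt upstream in 40 members, 37 of them within the same range. In other genes that hold a motif and have a measured start, the medians were 81 nt for PAC (511 genes, 51.7% within the range) and 91 nt for RRPE (451 genes, 66.5%). The other genes include assembly factors outside the members and genes for RNA polymerase I, whose distances were not taken apart. Whether the placement is particular to the members was thus not tested. All these distances use the copy of each motif that lies nearest upstream of the start site. By these copies RRPE was the farther of the motifs in 31 of 36 members with both (86.1%) and in 65.9% of 182 other genes. EBP2 is among the 31, with PAC at 45 nt and RRPE at 74 nt, since its window above marks another copy of PAC.

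**Figure D1:**
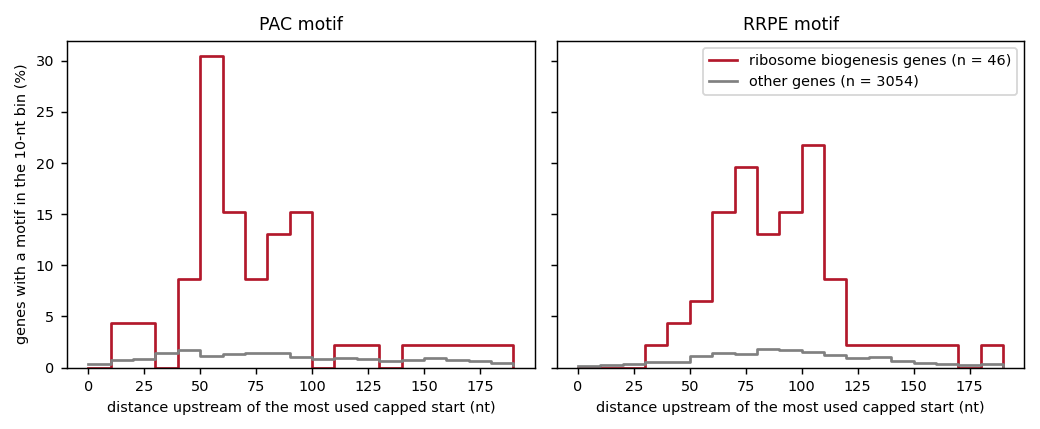
Share of genes with PAC (left) or RRPE (right) in each 10-nt bin upstream of the most used capped start in standard glucose libraries, for the 46 ribosome biogenesis genes with a measured start (red) and for all other genes with one (grey). In the members the fullest bin was 50 to 59 nt for PAC (30.4%, median distance 64 nt) and 100 to 109 nt for RRPE (21.7%, median 82.5 nt). Shares are over all genes with a start, with or without the motif. Low grey lines thus reflect how few other genes hold a motif and not where it lies. The other genes include assembly factors outside the members and genes for RNA polymerase I.

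Longer forms of the motifs were rarer in all genes and remained frequent in the members. GCGATGAG, a longer PAC, was in 26 members (46.4%) and 3.83% of all genes, and GAAAAATTT, a longer RRPE, in 34 members (60.7%) and 5.90%. The 137 cytosolic ribosomal protein genes, which encode the ribosome itself, held PAC in 10.2% and RRPE in 11.7%. A list of 96 other assembly factors held PAC in 87.5% and RRPE in 80.2%, and of 11 genes for RNA polymerase I and its factors 9 held PAC and 6 held RRPE.

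The columns held 6290819 (glucose) and 6425269 (galactose) standard reads, 2745847 and 3559614 long-enriched reads, and 1317650 and 1100551 non-capped reads. GAL1, the galactokinase that galactose induces, had 0 glucose and 24292 galactose reads in the standard columns, and HXT3, a glucose transporter, had 1405 and 1, as the labels of the media call for. The haploid-specific genes MFA1 and STE2 had at most 24 and 59 reads in any capped column. Because each column sums its libraries there is no spread between cultures and no test: intervals are 95% intervals of counting error only, and PCR copies of a molecule may be counted more than once. The long-enriched libraries repeat the measurement on some of the same cultures, in galactose cultures 1 and 4 of the 4. Reads per cell were not measured, so all ratios are relative to the other genes.

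Relative to the other genes, the ribosome biogenesis genes were modestly lower in galactose than in glucose, and no member passed 2-fold in both protocols. Of 49 members measured (at least 20 reads per protocol over both media), 0 passed 2-fold with both intervals excluding 1 in both protocols, against 2.51% of 3581 measured genes that were lower and 6.45% that were higher. By the interval criterion alone, 18 members were lower in both protocols, 0 were higher and 31 were neither; the shares over all measured genes were 18.1% lower and 17.5% higher. Over the members, the median log2 ratio of galactose over glucose was -0.36 with the standard and -0.33 with the long-enriched protocol, against 0.02 and 0.01 over all measured genes. These ratios were scaled by the trimmed mean of M values (TMM). When plain totals were used the members' medians became 0.07 and -0.19, while the medians of all genes moved up by 0.43 and 0.15. The count of lower members then became 5 of 49, with 2 higher. The shares over all measured genes became 8.68% lower and 28.7% higher. The difference between the members' median and that of all genes was -0.39 (standard) and -0.34 (long-enriched). A change of scaling shifts all genes by the same amount. This difference is therefore the same by construction under TMM, totals and DESeq2 size factors, and its constancy is no check of the result. The log2 ratio under TMM was below 0 in 39 members in the standard protocol, in 45 in the long-enriched one and in 37 in both.

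**Figure D2:**
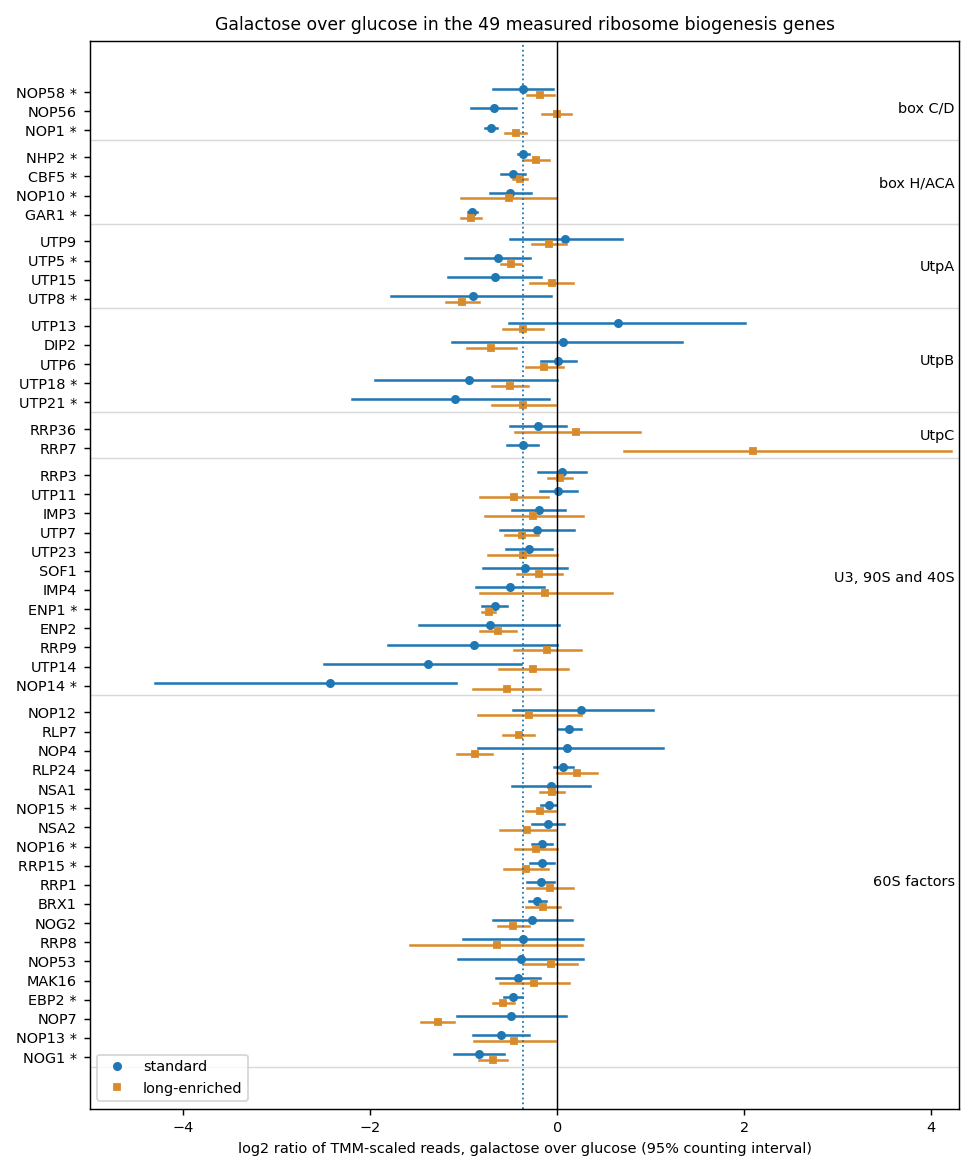
Log2 ratio of TMM-scaled reads in galactose over glucose for the 49 measured members, grouped by role and ordered by the standard ratio, with 95% counting intervals; circles are standard and squares long-enriched libraries, the dotted line is the members' standard median of -0.36, and an asterisk marks the 18 members lower in both protocols. Most points lie left of 0 under this scaling; with plain totals the standard median would lie at 0.07.

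The role groups hold few genes each. The shares to set beside their counts are the 18.1% (TMM) and 8.68% (plain totals) of all measured genes that were lower. All 4 proteins of the box H/ACA particle, which turns uridines of ribosomal RNA into pseudouridine, were lower in both protocols under TMM scaling, and GAR1 alone with plain totals. GAR1, a core protein of the particle, had 8501 glucose and 6241 galactose reads in the standard libraries, and 1647 and 1249 in the long-enriched libraries. Its scaled ratio was 0.533 (95% interval 0.515 to 0.550) for standard and 0.529 (0.491 to 0.569) for long-enriched reads, and galactose was the lower medium in both protocols under every scaling. NHP2, another core protein of the particle, had 4475 and 4799 standard and 782 and 957 long-enriched reads, with ratios of 0.778 (0.747 to 0.810) and 0.853 (0.775 to 0.939). The reads of NHP2 were thus higher in galactose before scaling, and its standard log2 ratio of -0.36 under TMM became 0.07 with plain totals. CBF5, the pseudouridine synthase, had 968 and 960 standard and 2766 and 3007 long-enriched reads, with ratios of 0.719 (0.657 to 0.787) and 0.758 (0.719 to 0.798). When a 50% overlap with the coding sequence sufficed, its standard log2 ratio of -0.48 became -0.22, and it stayed lower in both protocols. NOP10, the smallest member with a coding sequence of 177 nt, had 354 and 345 standard and 67 and 67 long-enriched reads, with ratios of 0.707 (0.608 to 0.822) and 0.697 (0.489 to 0.993), and was no longer lower in both protocols with pairs of ends seen at least 2 times.

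In the box C/D particle, which methylates the ribose of ribosomal RNA, 2 of 3 members were lower in both protocols under TMM scaling, and NOP1 alone with plain totals. NOP1, the methyltransferase known as fibrillarin, had 4228 glucose and 3556 galactose reads in the standard libraries, and 1228 and 1293 in the long-enriched libraries. Its ratios were 0.610 (0.583 to 0.638) and 0.734 (0.678 to 0.794). NOP56, a core protein of the particle, had 310 and 267 standard and 597 and 853 long-enriched reads, and its ratios were 0.625 (0.528 to 0.738) and 0.996 (0.896 to 1.11). NOP56 was thus lower in the standard protocol, and the long-enriched interval spanned 1. Of the 1715 and 1746 long-enriched reads that overlapped its coding sequence in glucose and galactose, 64.9% and 50.2% ended inside it. NOP58, the partner of NOP56, had 157 and 168 standard and 671 and 850 long-enriched reads, and its standard log2 ratio of -0.37 became 0.07 with plain totals. Of the 2155 and 1848 long-enriched reads that overlapped its coding sequence, 67.2% and 51.5% ended inside. The long-enriched ratios of NOP56 and NOP58 count whole coding sequences alone, and the part of the inside ends in them was not tested.

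Of the UtpA complex, which binds the first part of the precursor RNA, 4 of 5 members were measured and 2 were lower in both protocols under TMM scaling, 0 with plain totals. UTP5 had 148 and 131 standard and 1402 and 1431 long-enriched reads, with ratios of 0.642 (0.504 to 0.818) and 0.712 (0.661 to 0.766). UTP8 had 30 and 22 standard and 640 and 454 long-enriched reads, with ratios of 0.532 (0.292 to 0.954) and 0.495 (0.438 to 0.559); it was no longer lower in both protocols when a 50% overlap with the coding sequence sufficed. UTP15 had 75 and 65 standard and 269 and 370 long-enriched reads, and its long-enriched interval of 0.817 to 1.13 spanned 1. Within this complex the long-enriched columns carried most of the reads, and the standard intervals were wide.

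Of the UtpB complex, which joins the precursor after UtpA, all 5 members were measured and UTP18 and UTP21 were lower in both protocols under TMM scaling, 0 members with plain totals. UTP6 had the most standard reads (416 and 578), with 377 and 492 in the long-enriched libraries. Both of its intervals spanned 1, at 0.887 to 1.15 and 0.794 to 1.04. UTP18 had 24 and 17 standard and 443 and 447 long-enriched reads, with log2 ratios of -0.95 and -0.51. UTP21 had 22 and 14 standard and 141 and 157 long-enriched reads, with log2 ratios of -1.10 and -0.37. With a 50% overlap its standard log2 ratio was -0.43 and it was no longer lower in both protocols; with pairs of ends seen at least 2 times neither UTP18 nor UTP21 was. UTP13 had the highest standard log2 ratio of the members, 0.65, from 9 and 20 reads, and its long-enriched log2 ratio was -0.37 from 354 and 394 reads. The standard value of UTP13 rests on few molecules, and its interval of 0.702 to 4.02 spanned 1.

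Of the UtpC complex and its partner RRP36, 2 members were measured and neither was lower in both protocols. RRP7 had 559 glucose and 596 galactose reads in the standard libraries, and 4 and 27 in the long-enriched libraries. The standard ratio was 0.773 (0.688 to 0.870) and the long-enriched one 4.71 (1.64 to 18.5), so the protocols lay on opposite sides of 1 under TMM. With plain totals the standard ratio was 1.04 (0.929 to 1.17) and no longer opposed the long-enriched one. RRP36 had 174 and 208 standard and 32 and 53 long-enriched reads, and both of its intervals spanned 1.

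Among the U3 particle and other factors of the 90S and 40S precursors, 12 of 14 members were measured and ENP1 and NOP14 were lower in both protocols, under TMM scaling and with plain totals. Their share under TMM, 16.7%, was near the 18.1% of all measured genes. With plain totals RRP3 of this group was higher in both protocols. ENP1, a factor that stays with the 40S precursor on its way to the cytoplasm, had 956 and 828 standard and 3917 and 3379 long-enriched reads. Its ratios were 0.628 (0.572 to 0.690) and 0.601 (0.574 to 0.630), below 1 under every scaling. UTP11 had 356 and 495 standard and 126 and 131 long-enriched reads, with ratios of 1.01 (0.878 to 1.16) and 0.725 (0.563 to 0.933). NOP14, a 90S factor, had the lowest standard log2 ratio of all measured members, -2.43 from 21 and 5 reads, and a long-enriched one of -0.54 from 132 and 130 reads. When a 50% overlap with the coding sequence sufficed, its standard log2 ratio was -0.95. UTP14, which activates an RNA helicase of the 90S precursor, followed at -1.38 from 25 and 13 standard reads and -0.26 from 114 and 137 long-enriched reads. The lowest standard ratios of NOP14, UTP14, UTP21 and UTP18 all came from members with at most 25 standard reads in glucose.

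Among the 60S factors, 19 of 21 members were measured and 6 were lower in both protocols under TMM scaling: NOG1, NOP13, EBP2, RRP15, NOP16 and NOP15. NOP13 and NOP15 were not when a 50% overlap with the coding sequence sufficed. NOP15, an RNA-binding protein of early 60S precursors, had 2208 and 2856 standard and 637 and 807 long-enriched reads. Its ratios were close to 1, at 0.938 (0.887 to 0.992) and 0.883 (0.795 to 0.981), and its standard log2 ratio of -0.09 became 0.34 with plain totals. BRX1, a factor needed for early 60S assembly, had 1812 and 2153 standard and 440 and 566 long-enriched reads, with ratios of 0.862 (0.809 to 0.918) and 0.897 (0.790 to 1.02). EBP2 had 1798 and 1784 standard and 1367 and 1316 long-enriched reads, with ratios of 0.720 (0.674 to 0.769) and 0.671 (0.622 to 0.724). NOG1, a GTPase of the 60S precursor, had 276 and 213 standard and 778 and 693 long-enriched reads, with ratios of 0.560 (0.466 to 0.672) and 0.621 (0.560 to 0.689). NOG1 was, with GAR1, NOP1, ENP1 and NOP14, 1 of the 5 members that remained lower in both protocols when plain totals were used, and RLP24 and RRP3 were the 2 members that were then higher.

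The highest standard ratios after UTP13 were those of NOP12, RLP7 and NOP4, all 60S factors. NOP12, an RNA-binding protein, had 26 and 43 standard and 54 and 63 long-enriched reads, with log2 ratios of 0.25 and -0.30. RLP7, a protein related to a ribosomal protein, had 944 and 1425 standard and 586 and 632 long-enriched reads. Its ratio was 1.095 (1.01 to 1.19) for standard and 0.752 (0.671 to 0.843) for long-enriched reads, so here too the protocols lay on opposite sides of 1, also with plain totals, while with DESeq2 size factors the standard interval (0.995 to 1.17) spanned 1. NOP4 had 16 and 24 standard and 524 and 407 long-enriched reads, with log2 ratios of 0.11 and -0.89. NOP7, a scaffold of early 60S assembly, had the lowest long-enriched log2 ratio of the members, -1.28 from 721 and 427 reads, beside -0.49 from 52 and 51 standard reads.

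The members under the minimum were NOP2, RRP14, TSR1, RRP12, UTP4, UTP22 and RRP5. TSR1 and RRP5 had 0 reads that covered the whole coding sequence in any column, UTP4 had 3 and 2 in the long-enriched columns alone, and RRP12 had at most 3 in any column. NOP2, a methyltransferase of ribosomal RNA, had 6 and 2 standard and 10 and 11 long-enriched reads. RRP14 had 3 and 13 standard and 0 long-enriched reads, and UTP22 had 1 and 5 standard and 13 and 10 long-enriched reads. The coding sequence of RRP5, which acts on both subunits, is 5190 nt long, and recovery of whole coding sequences decreased with length.

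Of 96 other assembly factors 84 were measured, with median log2 ratios of -0.38 (standard) and -0.46 (long-enriched) under TMM and 0.06 and -0.31 with plain totals; 2 were called lower at 2-fold, 0 higher, and 32 were lower by the interval criterion. The 2 were ARX1, an export factor of the 60S precursor (227 and 118 standard and 1390 and 940 long-enriched reads), and SDA1 (118 and 77, and 802 and 558). Of the RNA polymerase I list 8 of 11 were measured and 3 were lower by the interval criterion, with medians of -0.52 and -0.33 under TMM and -0.09 and -0.18 with plain totals. RRN3, the factor that brings RNA polymerase I to its promoter, was called lower at 2-fold, with 24 and 8 standard and 100 and 67 long-enriched reads. Of 137 cytosolic ribosomal protein genes 135 were measured, 105 were lower by the interval criterion, 3 were called lower at 2-fold, and the medians were -0.57 and -0.42, which plain totals left below 0 at -0.14 and -0.27. By the interval criterion under TMM the lower shares were 38.1% (assembly factors), 37.5% (RNA polymerase I) and 77.8% (ribosomal proteins). Over all measured genes the share was 18.1%. At 2-fold 2.51% of all measured genes were lower, and the calls in 2 of 84 and 3 of 135 were near that share. The call of RRN3 was 1 of 8.

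The untranslated regions (UTRs) of the members had much the same lengths in both media. A UTR length here is the read-weighted median distance from the capped end to the start codon, or from the stop codon to the 3' end. The median over members was 37 nt for the 5' UTR in standard glucose libraries (46 members; 41 nt over all genes) and 37.5 nt in galactose, and 36.5 and 36 nt in the long-enriched libraries. For the 3' UTR it was 120 and 116.5 nt in the standard and 117.5 and 115 nt in the long-enriched libraries (118 nt over all genes in standard glucose). The longest 5' UTRs were those of RLP24 (145 nt), NOP1 (143 nt), UTP11 (75 nt) and RRP9 (69 nt), and the shortest those of SOF1 (11 nt), UTP14 (14 nt), UTP18 (16 nt) and RLP7 (21 nt). The longest 3' UTRs were those of IMP3 (342 nt), NOP14 (274 nt), NOP58 (257 nt) and NOG1 (237 nt), and the shortest those of UTP9 and UTP21 (51 nt each), RLP7 (65 nt), and ENP2 and RRP36 (68 nt each).

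Of 41 members with at least 20 reads in each capped column, 0 moved by at least 20 nt the same way in both protocols at either end. Over 2666 genes with the same depth the share was 1.65% for the 5' UTR and 1.28% for the 3' UTR. In 25 of the 41 members (61.0%) the 5' median did not differ between the media by a nucleotide within either protocol, and in 25 the 3' median did not; over the 2666 genes the shares were 46.5% and 48.7%.

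At the 5' end, 3 of the 41 had a longer standard median in galactose: NOP10 (48 nt in glucose, 57 nt in galactose), NOG2 (29 and 38 nt) and NOP12 (50 and 51 nt). The long-enriched libraries had NOP10 at 57 nt in both media and NOP12 at 47 nt in both, so of the 41 only NOG2 (34 and 36 nt) was longer in both protocols, against 9.86% of the 2666 genes. The largest 5' decreases in the standard libraries were those of NOP53 (41 and 36 nt), RLP24 (145 and 140 nt), RLP7 (21 and 17 nt) and NOG1 (62 and 59 nt). RLP24 went the other way in the long-enriched libraries (140 and 145 nt). RLP7 (24 and 22 nt in the long-enriched libraries) and NSA1 (44 and 42 nt, 44 and 31 nt) were shorter in both protocols, 2 of 41 members against 6.56% of genes.

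At the 3' end ENP2 alone had a longer standard median in galactose (68 and 76 nt), and its long-enriched medians were in the opposite order (94 and 76 nt). The largest 3' decreases were those of UTP8, NSA2, NOP12 and MAK16. UTP8 had 120 and 100 nt in the standard and 116 and 100 nt in the long-enriched libraries. NSA2, a factor of the late nucleolar 60S precursor, had 163 and 147 nt, and 168 and 136 nt. NOP12 had 159 and 143 nt, and 161 and 143 nt. MAK16 had 201 and 187 nt in the standard libraries and 187 nt in both media in the long-enriched ones. UTP8, NSA2, NOP12 and NOP7 (162 and 160 nt, 205 and 198 nt) were the 4 members with a shorter 3' UTR in galactose in both protocols (9.76%), and 0 members had a longer one in both. Over the 2666 genes 12.2% were shorter and 1.43% longer in both, so the members' share was near that of all genes. GAR1 differed by protocol and not by medium, with a 3' median of 190 nt in both standard and 98 nt in both long-enriched columns.

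**Figure D3:**
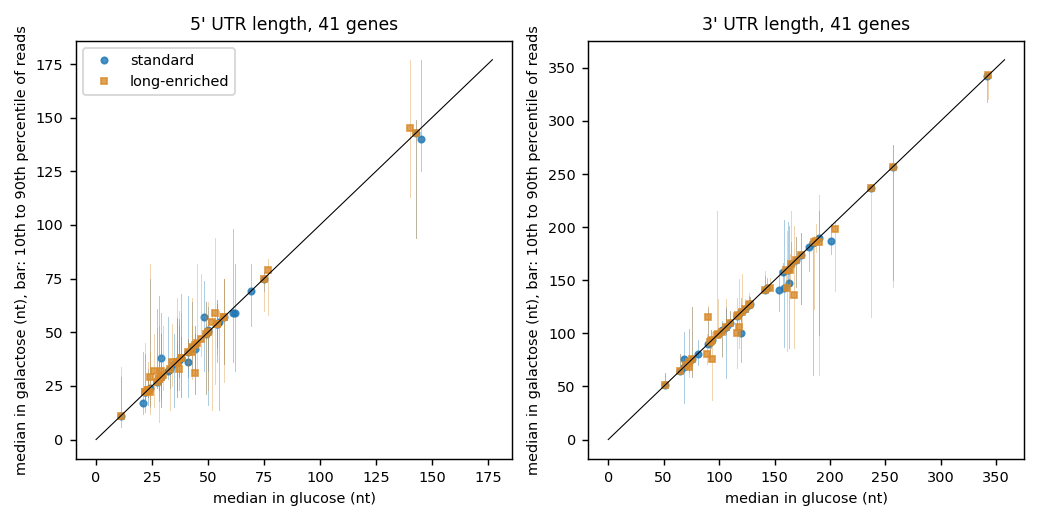
Read-weighted median 5' UTR (left) and 3' UTR (right) length in galactose against glucose for the 41 members with at least 20 reads in each capped column, in nt; circles are standard and squares long-enriched libraries, and bars span the 10th to 90th percentile of galactose reads. Points lie on or near the diagonal of equal length, with RLP24 and NOP1 at the far end of the 5' axis and IMP3 at that of the 3' axis.

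The most used start was on A in 38 and on G in 8 of the 46 members, and followed a pyrimidine in 45; the shares on A (82.6%) and after a pyrimidine (97.8%) were close to the 82.0% and 97.9% of 3100 genes. An upstream ATG, a start codon in the leader that can divert ribosomes, lay in the most used leader of 1 of the 46 members (2.17%) and of 11.4% of 3100 genes. That member was NOP53, a factor that brings the exosome to 60S precursors. All 39 of its standard glucose reads (100%, exact binomial interval from 91.0%) carried an ATG 19 nt before the start codon, as did 95.1% of standard galactose, 97.8% of long-enriched glucose and 98.4% of long-enriched galactose reads. The ATG is out of frame, and its reading frame of 10 codons ends 14 nt past the start of the NOP53 start codon. At least 5% of standard glucose reads carried an upstream ATG in 8 of 46 members (17.4%) and in 29.6% of genes, with the next highest shares in NHP2 (29.4%), IMP4 (26.7%), NOP10 (15.5%) and RRP15 (13.0%).

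The number of isoforms, counted as distinct pairs of ends expected among 50 reads of a gene, had a median of 27.2 over 35 members in standard glucose libraries, against 29.4 over all 2358 genes of that depth. It was 26.0 in standard galactose, and 29.1 and 29.0 in the long-enriched libraries. The most isoforms in standard glucose were those of NOG2 (38.4), NSA2 (36.9), NOP15 (35.4) and NOP58 (33.6). The fewest were those of UTP6 (14.0), EBP2 (20.1), UTP15 (20.3) and SOF1 (21.2). In standard glucose UTP6 had 90.1% (interval 86.9% to 92.8%) of its reads on 1 3' end, 70 nt past the stop codon, while the most used 3' end of NOG2 took 14.6% (8.01% to 23.7%). In UTP6 the number was 15.3 in standard galactose and 13.7 and 15.03 in the long-enriched libraries, so its low value recurred in all 4 columns.

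The share of molecules that covered a whole coding sequence depended on its length and on the protocol. Among members of up to 1000 nt with at least 20 overlapping reads (19 in the standard, 18 in the long-enriched libraries), the median share in glucose was 91.7% for standard and 93.5% for long-enriched reads. Among those between 1000 and 2000 nt (23 in the standard, 24 in the long-enriched libraries) it was 46.4% and 90.8%, and above 2000 nt (11 and 12) it was 15.7% and 47.5%. The log2 ratio of long-enriched over standard scaled reads rose with coding length across the 49 measured members (Pearson's r 0.83, Spearman's rho 0.90 in glucose); these members share the same libraries and depth, and the values compare recovery and not expression. Read numbers therefore do not order the members by expression.

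**Figure D4:**
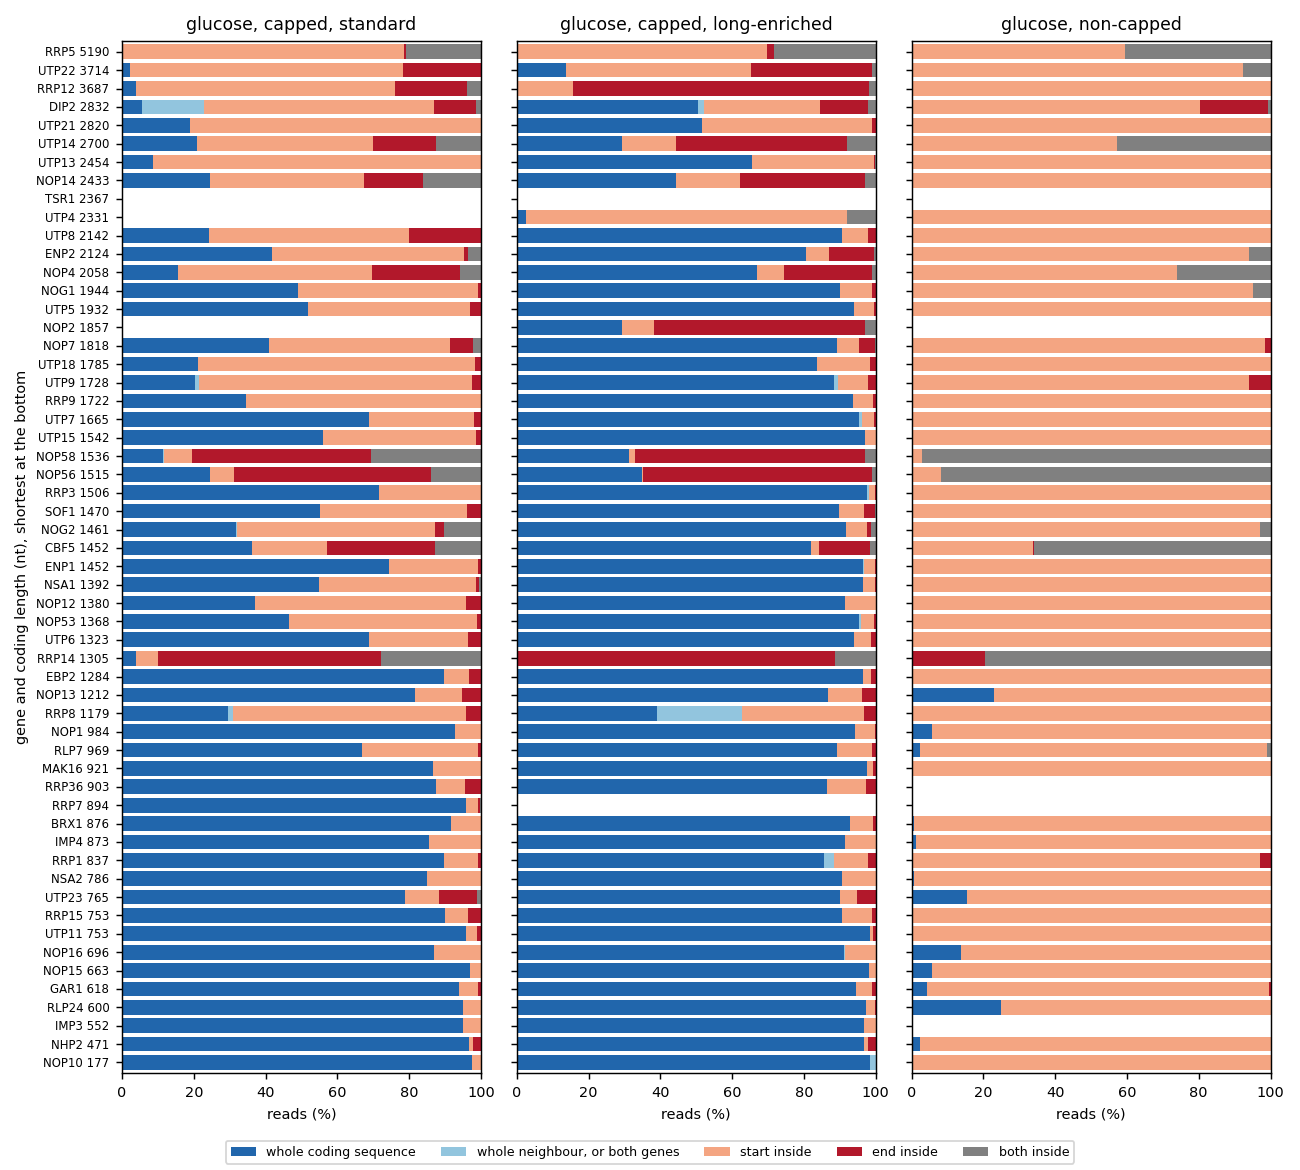
Share of same-strand reads at each member by the part of the coding sequence they cover, in the standard, long-enriched and non-capped glucose columns, with members ordered by coding length; a member with fewer than 20 reads has no bar. Whole coding sequences (dark blue) predominate in short members in the capped columns, NOP56, NOP58, CBF5 and RRP14 have many reads that end inside, and non-capped reads mostly start inside.

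Non-capped molecules of the members started away from the capped starts. Within 5 nt of the most used start lay 40.3% (39.8% to 40.7%) of the capped standard glucose reads of the 46 members and 0.492% (0.412% to 0.584%) of their non-capped glucose reads (131 of 26614); over all genes the shares were 63.97% and 0.986%. The median share per gene in the capped column was 34.97% over the members and 35.9% over all genes, so the difference between the pooled capped shares was not present per gene. Of the members with whole coding sequences in the non-capped glucose column, NOP1 had 135 reads, GAR1 119 and RLP24 112.

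In standard glucose libraries 11 of the 53 members with at least 20 overlapping reads (20.8%, exact binomial interval 10.8% to 34.1%) had 20% or more of them end inside the coding sequence. Of all genes of that depth 11.3% did, and their median share was 0.926%. The members are a list chosen by name and not a random sample, so the interval cannot test this difference. In standard galactose the count was 8 of 53 (15.1%, 6.75% to 27.6%) against 11.1%. In the long-enriched columns the shares were 18.5% (glucose) and 16.4% (galactose) against 9.60% and 9.85%. The 5 members with the most such reads were CBF5, NOP58, NOP56, RRP5 and NHP2. NOP58 had 1100 of 1364 (80.6%, exact binomial interval 78.4% to 82.7%), NOP56 had 872 of 1268 (68.8%, 66.1% to 71.3%), CBF5 had 1145 of 2674 (42.8%, 40.9% to 44.7%) and RRP5 had 231 of 1077 (21.4%, 19.0% to 24.0%). The highest share was that of RRP14, a factor of precursor RNA processing, with 71 of 79 (89.9%, 81.0% to 95.5%). The other 6 members past 20%, each with at most 36 such reads, were UTP8, UTP22, UTP14, RRP12, NOP14 and NOP4. In standard galactose the shares were 81.4% for NOP58, 71.8% for NOP56, 47.2% for CBF5, 18.1% for RRP5 and 88.2% for RRP14. For CBF5 the share in the long-enriched glucose column was 15.8%, below both standard columns, and it was 64.9% (62.6% to 67.2%) for NOP56 and 67.2% (65.2% to 69.2%) for NOP58. In the long-enriched galactose column NOP56 and NOP58 had lower shares, 50.2% (47.9% to 52.6%) and 51.5% (49.2% to 53.8%), and CBF5 had 14.0%; the part of this in their long-enriched ratios of whole coding sequences was not tested.

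At each gene 1 position held the most such ends. It held 690 of the 1145 inside ends of CBF5, 485 of 872 in NOP56, 475 of 1100 in NOP58 and 203 of 231 in RRP5. NOP58 had a second large site 92 nt before the end of the coding sequence, with 330 reads in standard glucose and 414 in standard galactose. The lines below give 30 bases of the coding strand around that position, because the ends share the letters that follow. The last lower-case base is the mapped 3' end of the reads, and the capitals are the bases of the gene that come after it. The same is shown for NHP2 (83 of 99 ends) and GAR1 (64 of 86), where such reads were a small share of all reads, 2.14% and 0.949%.
CBF5 (chrXII:507465-507494, plus strand): ggaaaagaaggAAAAGAAAGAAAAGAAGGA
NOP56 (chrXII:547512-547541, plus strand): atcgaagaaggAAAAGAAAGAAAAGAAGGA
NOP58 (chrXV:896889-896918, minus strand): ggaaaagaaggAAAAGAAGGAAAAGAAGGA
RRP5 (chrXIII:726111-726140, minus strand): gaagtgaaggcAAAAGATAAGAAGAAGGTG
NHP2 (chrIV:87905-87934, plus strand): aaaaaagatggAAAAAATAAAGAAGAAGAA
GAR1 (chrVIII:282879-282908, minus strand): ccaccaaaaccAAAAAACAAGAAGAAGAGA

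Each stretch begins with AAAA and holds few pyrimidines; CBF5, NOP56 and NOP58 end in lysine-rich tails, which AAG and AAA codons encode. The next 20 bases held 14 A in CBF5, 15 in NOP56, 13 in NOP58 and 11 in RRP5. Over all members, 87.4% of the standard glucose reads that ended inside a coding sequence were followed by at least 12 A in the next 20 bases, against 19.2% of those that ended past the stop codon. Over all genes these shares were 46.0% and 9.505%. The members' share inside coding sequences rests on CBF5, NOP56 and NOP58: without them it was 49.1% of 995 reads (46.0% to 52.3%), near that of all genes. The sites were 110 nt before the end of the coding sequence in CBF5, 89 in NOP56, 83 in NOP58 and 196 in RRP5, and they recurred in every column. In standard galactose they held 909, 542, 590 and 214 reads, and in the non-capped glucose library 1706, 663, 1410 and 1187. cDNA made from a poly(A) tail can also start on A-rich RNA, and whether these ends are poly(A) sites or come from such priming was not tested. The values of CBF5, NOP56 and NOP58 by medium rest on the 968, 310 and 157 standard glucose reads that ran through these stretches.

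**Figure D5:**
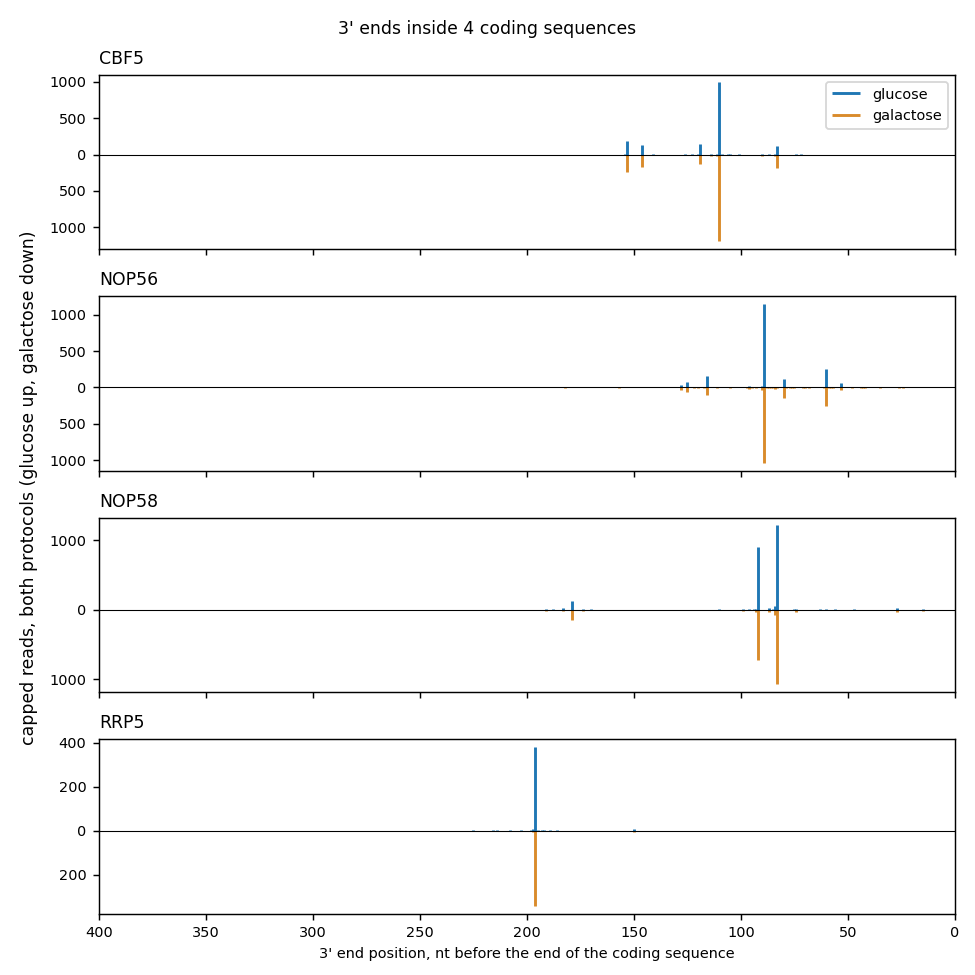
Capped reads with a 3' end at each position inside CBF5, NOP56, NOP58 and RRP5, by distance before the end of the coding sequence in nt; standard and long-enriched reads are added, with glucose upward and galactose downward. The highest position is at 110, 89, 83 and 196 nt, at the same place in both media, and NOP58 has a second large one at 92 nt.

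RRP5 also had many reads that started inside its coding sequence. Of 1070 such reads in standard glucose libraries 588 began 4478 nt from the start codon, as did 784 in standard galactose and 946 in the non-capped glucose library. At RRP14 and TSR1 the few capped reads in standard glucose likewise ended mostly inside, 71 of 79 and 11 of 11. Reads on the opposite strand were counted at any overlap with the coding sequence, a looser measure than a whole coding sequence. RRP8, a methyltransferase of ribosomal RNA, had 496 of them in standard glucose and 524 in standard galactose. On its own strand 142 and 108 reads overlapped, of which 42 and 45 covered the whole coding sequence. NOP16 had 541 and 495 opposite-strand reads in the long-enriched libraries, beside 331 and 386 overlapping reads on its own strand. RRP36 had 132 and 251 in the standard libraries, beside 199 and 224 overlapping reads on its own strand. DIP2, a UtpB member, had 34 standard glucose reads that covered a neighbouring gene whole, beside 11 that covered its own coding sequence alone.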

How the data were processed

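TIF-Seq reads of 18 yeast libraries were processed by the authors; CASAVA, Novoalign 2.07.10 and R64 are listed, without their roles, per the submitters' processing notes. The deposited values are counts: whole reads per pair of 5' and 3' positions, summed by the authors for each medium and protocol, per the file headers and the note deposited with them. On collapsing of PCR duplicates nothing was given in the sources used here. The 6 columns of reads all entered, with 0 omitted; 2502656 pairs were read, of which 502140 had no read.

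Reads were assigned by strand to the coding sequences of 6002 genes. Ratios of galactose to glucose were scaled per protocol with TMM (edgeR 4.0.16, R 4.3.3; DESeq2 1.42.0 size factors and totals as alternatives), with exact Poisson ratio intervals at 95%. Ratios, UTR medians (at least 20 reads), isoform numbers (50 reads), motifs and read classes were computed in Python 3.11.15 with a pseudocount of 0.5 for log2 ratios. The calls were tested on simulated counts with as many genes raised as lowered, a balanced setting that cannot decide between the scalings. With blastn 2.17.0, 0 of 56 members had a copy of at least 90% identity over 80% of the length.

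Libraries are pooled within columns, so edgeR and DESeq2 tests between replicates were not possible. The members and lists were chosen with earlier results of these data known. Values are given for the 2 members with the most standard reads in each role, the 4 highest and 4 lowest standard ratios, the 4 longest, shortest and most changed UTRs, the 4 highest and lowest isoform numbers, the members not measured, and every called member; other named members were chosen after their values were seen. Promoter windows were planned from a reference table and were read from the R64 genome. DBP4 and MDN1 of the assembly factor list were matched by synonym.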

Additional observations from a re-analysis of the deposited data

Results flagged for a closer look

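RRP7 and RLP7 had ratios on opposite sides of 1 in the standard and the long-enriched protocol, each with a 95% counting interval that excludes 1; these are ratios under TMM, and the difference between the protocols was not tested. For RRP7 the long-enriched log2 ratio was 2.09, from 4 and 27 reads, beside a standard log2 ratio of -0.37, which was 0.06 with plain totals (interval of the ratio 0.929 to 1.17), so the opposition of RRP7 was not present under that scaling. For RLP7 the long-enriched log2 ratio was -0.41, beside a standard one of 0.13; with DESeq2 size factors the standard interval (0.995 to 1.17) spanned 1. The long-enriched galactose column holds cultures 1 and 4 of the 4 in the standard column, and its part in these differences was not tested.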

How the results depend on the processing

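With plain totals in place of TMM, the members' median log2 ratio reversed to 0.068 (standard) and moved to -0.187 (long-enriched). With these totals 7 members in place of 18 had both intervals on one side. They were 5 lower and 2 higher, against 8.68% lower and 28.7% higher over all measured genes. The cause was not tested beyond the shift of all genes given above. The standard log2 ratio then turned positive in NHP2 (0.0703), NOP16 (0.269), NOP15 (0.341), NOP58 (0.0669) and RRP15 (0.269), and 8 of the 18 lost the criterion without changing sign. A 1.5-fold threshold called 4 members lower in place of 0, against 6.67% of all measured genes lower and 11.1% higher. DESeq2 size factors, a 50% overlap, pairs seen at least 2 times and no read minimum kept the counts within 1.5 times and the medians within 0.1 log2, but not the same members: UTP8, UTP21, NOP13 and NOP15 lost the criterion with a 50% overlap, and NOP10, UTP18 and UTP21 with pairs seen at least 2 times, where NOP14 fell under the read minimum. The standard log2 ratio of NOP14 was -0.955 with a 50% overlap. UTR medians moved by under 10% under every alternative run. The isoform median was 66.4 among 200 reads and 20.8 with ends in bins of 5 nt. The longer PAC was in 26 members in place of 50. The median share of whole coding sequences over all members, 55.0% in standard glucose libraries, was 90.3% in the long-enriched ones and 63.7% with pairs seen at least 2 times. No paired analysis was possible because the libraries of each kind are summed in 1 column, and for the same reason no replicate was left out. Few standard reads lay behind several long members, and whole coding sequences were recovered less often from them.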
